A study of Mus musculus with 6 samples.

Results

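The genes described here are the receptors, receptor substrates and binding proteins through which hepatocytes meet insulin and the insulin-like growth factors (IGFs). They were chosen by name as 10 genes of the 55450 in the annotation: the receptors Insr, Igf1r and Igf2r, the substrates Irs1 and Irs2, and the binding proteins Igfbp1, Igfbp2, Igfbp3, Igfbp4 and Igfbp7. They were followed in bulk RNA-Seq of primary hepatocytes from male C57BL/6 mice (C57BL/6J in the study's methods) on a normal diet, with no transgene or deleted allele named in any group. The labels give an age of 10 to 12 weeks, and the study's methods give a slightly younger one. One group of 3 libraries came from undamaged liver (0 h) and the other group of 3 libraries from liver collected 48 h after partial hepatectomy (PHx), an operation that takes away most of the liver mass. Each library was made from its own hepatocyte preparation, obtained by digesting the liver with collagenase in a perfusion of 2 steps.

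Insulin and IGF1 act through the related tyrosine kinase receptors encoded by Insr and Igf1r, which phosphorylate Irs1 and Irs2 and so recruit PI3K, AKT and the RAS pathway. Igf2r, the cation-independent mannose 6-phosphate receptor, takes IGF2 to lysosomes and has no kinase. The binding proteins hold IGFs in blood and tissue. The liver makes most circulating IGF1 and several of these carriers, and hepatocytes are known for abundant Insr and little Igf1r.

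Igfbp1 and Irs2 are textbook targets of FOXO transcription factors, which insulin keeps out of the nucleus, and their promoters were therefore searched for the FOXO-related motifs TGTTTTG and TGTTTAC on both strands. RefSeq windows of GRCm38.p6 were matched for 9 of the 10 genes, all except Insr, and the 250 bases before each RefSeq start were read. TGTTTTG was found in the windows of Igfbp1, Irs2 and Irs1, and TGTTTAC in none of the 9 genes. The stretches below show these matches, 5′ to 3′ along each gene's strand, with the motif or its reverse complement CAAAACA in capitals. They cover chr11:7197537-7197776 on the plus strand for Igfbp1, chr8:11008940-11008996 on the minus strand for Irs2 and chr1:82291450-82291580 on the minus strand for Irs1.
Igfbp1: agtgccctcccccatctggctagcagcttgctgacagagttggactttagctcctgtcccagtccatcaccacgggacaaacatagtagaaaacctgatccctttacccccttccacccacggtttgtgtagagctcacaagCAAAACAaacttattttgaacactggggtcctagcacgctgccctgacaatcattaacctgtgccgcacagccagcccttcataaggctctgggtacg
Irs2: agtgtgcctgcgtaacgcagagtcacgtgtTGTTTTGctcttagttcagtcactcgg
Irs1: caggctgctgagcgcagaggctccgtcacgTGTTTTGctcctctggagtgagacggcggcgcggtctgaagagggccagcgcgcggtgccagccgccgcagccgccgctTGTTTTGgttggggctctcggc

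The Igfbp1 match started 108 bases before the RefSeq start, the Irs2 match 37 bases before it, and the Irs1 matches 111 and 32 bases before it. Of all 32851 promoter windows in the table, 5.56% held TGTTTTG and 3.17% held TGTTTAC in the same 250 bases. A match describes letters only. Igf1r, Igf2r, Igfbp2, Igfbp3, Igfbp4 and Igfbp7 held neither motif in this window, so the called genes described below include genes with and without it.

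All 10 genes were measured in every library. None was higher at 48 h, 7 were lower and 3 did not pass the test. The largest decreases were those of Igfbp3, at 6.68-fold, and Igfbp1, at 4.40-fold, whereas Igfbp4, the binding protein with the most mRNA at 48 h, overlapped between the times. Of the 17037 genes tested, 19.3% were called lower, 21.3% were called higher and 40.6% were called in either direction. Calls were made with edgeR's quasi-likelihood test at a Benjamini-Hochberg adjusted p under 0.05, with TMM normalization and at least 10 counts in at least 3 libraries. At an unadjusted p under 0.05 the same test gave 0 of the 10 higher and 8 lower, beside 25.2% and 23.7% of all genes tested. DESeq2 gave 0 higher and 7 lower, beside 20.3% and 19.2% of all genes, and limma-voom also gave 0 higher and 7 lower, beside 21.4% and 19.3%. The 0 h and 48 h libraries did not overlap in 8 of the 10 genes, against 52.7% of all genes tested. The median log2 fold change of the 10 genes was -0.74, beside -0.0036 over all genes tested.

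**Figure D1:**
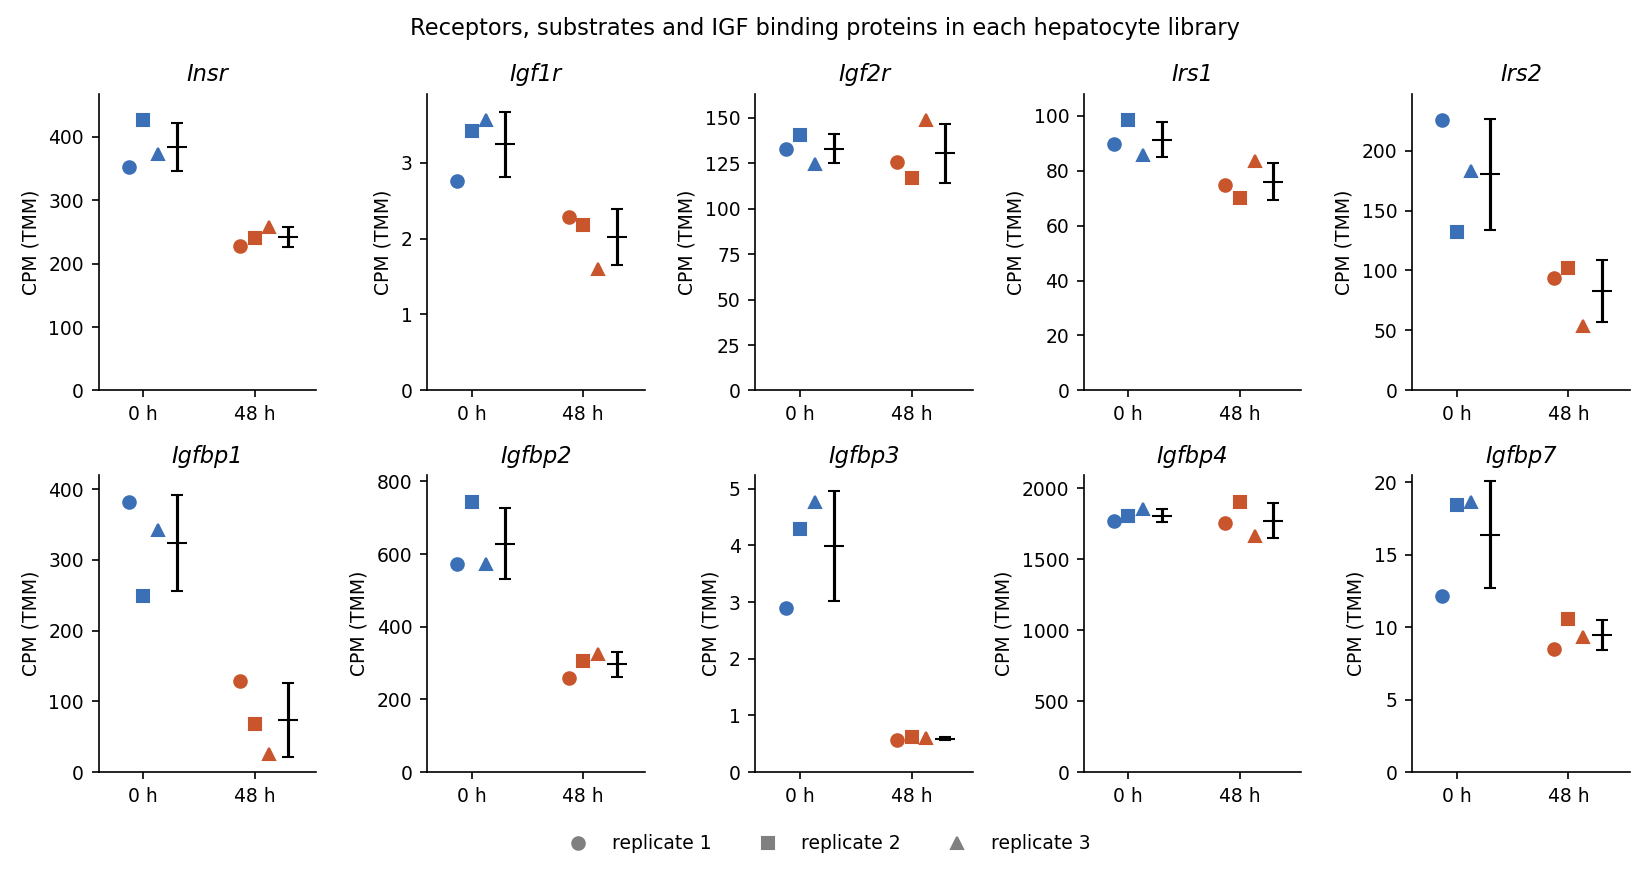
Level of each gene in each library, as CPM (counts scaled to a common library total, with TMM factors), on a linear axis that starts at 0. Circles, squares and triangles are replicates 1, 2 and 3 of 0 h (blue) and 48 h (orange), and the black bar is the mean with its SD (n = 3). Igfbp1 lies between 250 and 382 at 0 h and between 25.2 and 128 at 48 h, and the points of Igf2r and Igfbp4 overlap between the times.

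**Figure D2:**
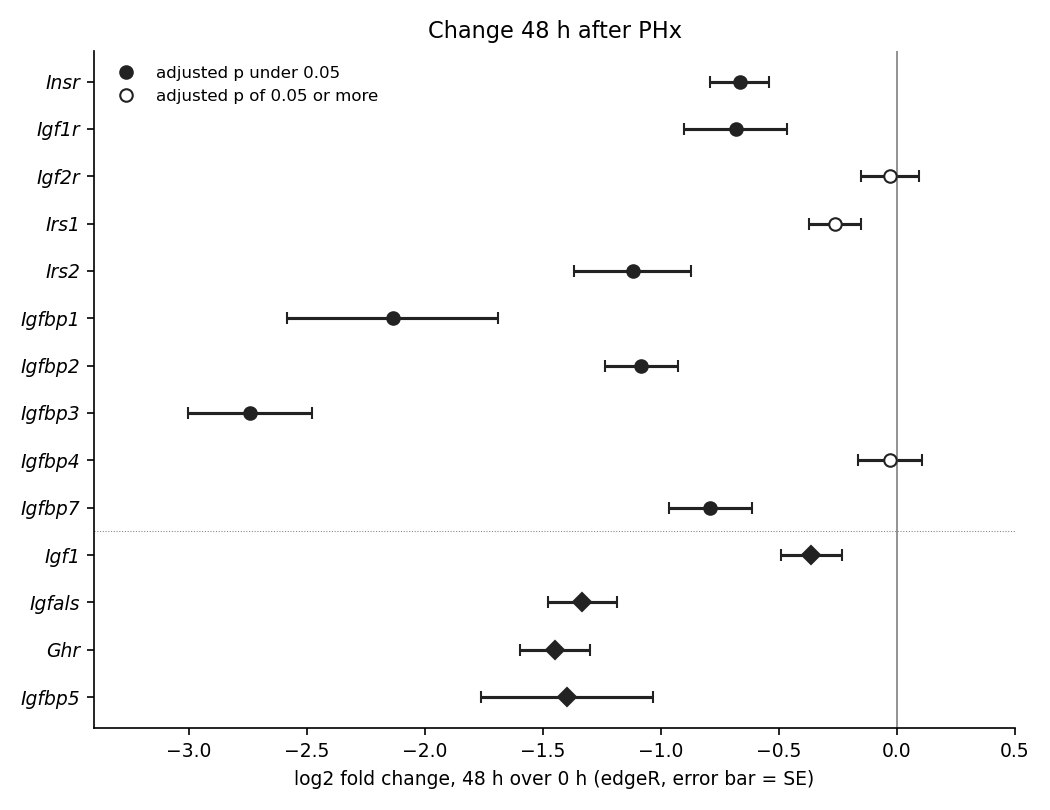
The log2 fold change at 48 h over 0 h from edgeR, with its SE as the bar, for the 10 genes (circles) and for Igf1, Igfals, Ghr and Igfbp5 (diamonds). Filled symbols had an adjusted p under 0.05. The changes of the 10 genes run from -2.74 for Igfbp3 to -0.03 for Igf2r and Igfbp4.

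Gene counts summed to 31419443 to 36346220 per library at 0 h and to 31684152 to 33093006 at 48 h. TMM factors were 0.913 to 0.95 at 0 h but 1.02 to 1.11 at 48 h, so with library size as the only scaling the median gene was 0.20 higher on the log2 scale at 48 h. The libraries were those of hepatocytes by their markers: the 10 hepatocyte markers summed to 109526 to 129672 CPM at 0 h and to 77377 to 93984 CPM at 48 h, with 5 of them lower and 1 higher. Other cells were present at low levels. The 14 sinusoidal endothelial markers, none of them at 0, summed to 339 to 522 CPM at 0 h and to 230.5 to 265 CPM at 48 h, with 13 of 14 lower. The 13 stellate and fibroblast markers summed to 78.5 to 127 CPM and 75.2 to 92.3 CPM, with 3 higher and 1 lower, and the 10 Kupffer cell markers to 78.3 to 118 CPM and 112 to 137 CPM, with 2 higher. Krt19, Krt7, Epcam and Cftr, which mark cholangiocytes, were at or under 3 counts per library on average, as were 6 of 8 markers of other leukocytes. In such bulk libraries fewer cells of a type and less RNA per cell cannot be told apart.

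Insr, the insulin receptor, lies at chr8:3122061-3279617 on the minus strand (GRCm38). Its level was 353, 426 and 374 CPM in the 0 h libraries and 228, 241 and 258 CPM in the 48 h libraries. Every 48 h library was below every 0 h library. Insr fell 1.59-fold (log2 fold change -0.67, SE 0.126, edgeR adjusted p = 0.00193).

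Igf1r, the receptor for IGF1, lies at chr7:67952827-68233668 on the plus strand and was a rare transcript in these cells. It received 81, 106 and 118 counts at 0 h and 77, 78 and 56 counts at 48 h, which correspond to 2.76, 3.42 and 3.55 CPM and to 2.29, 2.18 and 1.60 CPM. The groups did not overlap, but the gap between the nearest libraries was smaller than the range within either group. The log2 fold change was -0.68 (SE 0.218, edgeR adjusted p = 0.0291). The call was lost without 0 h replicate 2 (adjusted p = 0.0592), 0 h replicate 3 (0.0884), 48 h replicate 2 (0.0615) or 48 h replicate 3 (0.106), and with library size as the only scaling (-0.48, adjusted p = 0.0948). Using the replicate number as a block also lost it. Endothelial cells also carry this receptor, and Igf1r as a percent of the summed endothelial markers was 0.654 to 0.813 at 0 h and 0.638 to 0.992 at 48 h, so that the times overlapped on this scale. The part of the endothelial markers in the Igf1r result was not tested.

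Igf2r lies at chr17:12682406-12769664 on the minus strand. It stood at 133, 141 and 125 CPM at 0 h and at 126, 117 and 149 CPM at 48 h, and the libraries of both times overlapped, with the highest and the lowest value both at 48 h. The log2 fold change of -0.03 (SE 0.122, adjusted p = 0.876) turned to 0.18 with library size as the only scaling. Airn, an antisense RNA that starts within Igf2r, rose from 2.10 to 5.15 CPM (log2 fold change 1.29, SE 0.207, adjusted p = 0.000688). The exons of Airn and Igf2r do not overlap in the annotation, but counting by strand was not stated, so reads of unspliced RNA from either gene cannot be told apart where they fall on the other's exons.

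The balance between the receptors was compared per length, as TPM, counts divided by the merged exon length of each gene and scaled to the same total in every library. At 0 h, Igf1r stood at 0.00640, 0.00656 and 0.00779 of Insr in TPM, and at 48 h at 0.00821, 0.00742 and 0.00507. These ratios overlapped, and Insr had on average 146 times the TPM of Igf1r at 0 h and 151 times at 48 h. Igf2r stood at 0.557, 0.488 and 0.494 of Insr at 0 h and at 0.815, 0.718 and 0.851 at 48 h. All 3 of the later libraries were above the earlier ones for this ratio, a shift of 0.63 on the log2 scale, which uses no scaling between libraries and was not tested.

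Irs2, the substrate whose mRNA insulin is known to lower in liver, lies at chr8:10984681-11008458 on the minus strand. Its level was 225, 132 and 183 CPM at 0 h and 93.5, 102 and 53.4 CPM at 48 h. The times did not overlap, although 0 h replicate 2 and 48 h replicate 2 came near each other. Irs2 fell 2.17-fold (log2 fold change -1.12, SE 0.247, edgeR adjusted p = 0.00465). It was also variable within each time, with a CV of 25.8% at 0 h and 31.2% at 48 h, beside medians of 10.3% and 8.06% over the 7564 genes that averaged 10 CPM or more.

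Irs1, the companion substrate, lies at chr1:82233101-82291416 on the minus strand. It was measured at 89.8, 98.3 and 85.7 CPM at 0 h and at 74.7, 70.0 and 83.5 CPM at 48 h. The libraries did not overlap, but the difference did not pass the test (log2 fold change -0.26, SE 0.111, edgeR adjusted p = 0.0829). With TMM factors taken from protein-coding genes it passed narrowly (-0.32, adjusted p = 0.0479). Exons of Gm9747 on the other strand cover 30.9% of the Irs1 exon bases, and Gm9747 had 0 counts in every library. Counting by strand was not stated, so reads on these shared bases may have been left out as ambiguous. The TPM of Irs1, which use its full exon length, could then be too low. The ratio of Irs1 to Irs2 in TPM was 0.276, 0.514 and 0.323 at 0 h and 0.552, 0.475 and 1.08 at 48 h, so the times overlapped, with 48 h replicate 3 the highest.

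Igfbp1, the binding protein that insulin acutely represses in hepatocytes, lies at chr11:7197782-7202546 on the plus strand. Its level was 382, 250 and 342 CPM at 0 h and 128, 67.6 and 25.2 CPM at 48 h. Every later library was far below every earlier one, and the 48 h libraries also lay far apart from each other. Igfbp1 fell 4.40-fold (log2 fold change -2.14, SE 0.447, edgeR adjusted p = 0.00346). Without 48 h replicate 1 the log2 fold change became -2.80 (SE 0.370, adjusted p = 0.000304), and without 48 h replicate 3 it became -1.72 (SE 0.274, adjusted p = 0.000909). The CV of Igfbp1 at 48 h was 70.3%, larger than that of 99.8% of the same 7564 genes, whereas its CV at 0 h was 20.9%.

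Because Igfbp1 differed so much between libraries of one time, the genes whose log2 CPM ran most closely with it over the 6 libraries were listed, among the 7556 genes of that level outside the 10. Among the 5 closest were Pik3c2g, a class II phosphoinositide 3-kinase of the liver (r = 0.995), Atf4, the transcription factor of the integrated stress response (r = 0.995), Ankrd13c (r = 0.994) and Zfand4 (r = 0.992). Leaving out any 1 library left the correlations of the 5 at 0.980 or higher. Atf4 was at 152, 138 and 152 CPM at 0 h and at 123, 108 and 81.3 CPM at 48 h, the same order of libraries within 48 h as Igfbp1 but over a much narrower range. In all, 87 genes had an r above 0.95. The points of these correlations share 6 libraries, their depth and the difference between the times, and the values are descriptions.

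Igfbp2, a binding protein that hepatocytes secrete, lies at chr1:72824503-72852474 on the plus strand. Its level was 572, 742 and 573 CPM at 0 h and 258, 306 and 326 CPM at 48 h. The times were well separated. Igfbp2 fell 2.12-fold (log2 fold change -1.08, SE 0.154, edgeR adjusted p = 0.000328). The hepatocyte markers were also lower in sum at 48 h, as given above. Alb was the largest part of that sum, with a mean of 63557 CPM at 0 h and 35066 CPM at 48 h. Of the 10 markers 5 were called lower, 1 was called higher and 4 were not called. The part of these markers in the decreases of Insr, Irs2, Igfbp1 and Igfbp2 was not tested.

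Igfbp4, which binds IGFs until the protease pappalysin cleaves it, lies at chr11:99041244-99054392 on the plus strand. Its level was 1766, 1805 and 1853 CPM at 0 h and 1755, 1902 and 1662 CPM at 48 h. The libraries overlapped, and the log2 fold change was -0.03 (SE 0.137, edgeR adjusted p = 0.886), or 0.17 with library size as the only scaling. The CV of Igfbp4 was 2.39% at 0 h, and 4.38% of the genes that averaged 10 CPM or more had a smaller one, whereas it was 6.82% at 48 h, with 40.6% of those genes smaller.

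Igfbp3, the main IGF carrier of the blood, is known in liver from cells other than hepatocytes. It lies at chr11:7206086-7213923 on the minus strand, 3539 bases from Igfbp1, and the neighbouring genes point toward each other. Igfbp3 received 85, 133 and 158 counts at 0 h and 19, 22 and 21 counts at 48 h, which are 2.89, 4.29 and 4.76 CPM and 0.564, 0.615 and 0.60 CPM. All later libraries lay close together and far below the earlier ones. The log2 fold change was -2.74 (SE 0.261, edgeR adjusted p = 2.29e-05), a 6.68-fold decrease, and 3.23% of the genes tested had a larger change in either direction.

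Igfbp7, a low-affinity member of the family that endothelial cells make in quantity, lies at chr5:77349240-77408041 on the minus strand. Its level was 12.2, 18.4 and 18.6 CPM at 0 h and 8.52, 10.6 and 9.34 CPM at 48 h. The times did not overlap, and 0 h replicate 1 was the lowest of its group for Igfbp7, for Igfbp3 and for the endothelial markers. That library was also the lowest at 0 h in the summed stellate and fibroblast, Kupffer cell, other leukocyte and hepatocyte markers. In the cholangiocyte sum it was the highest. Igfbp7 fell 1.73-fold (log2 fold change -0.79, SE 0.176, edgeR adjusted p = 0.00486). Exons of Polr2b on the other strand cover 7.03% of the Igfbp7 exon bases, and Polr2b was at 45.4 CPM at 0 h and 52.3 CPM at 48 h.

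The summed endothelial markers fell by 0.85 on the log2 scale between the times, so Igfbp7 and Igfbp3 were also expressed as a percent of that sum in the same library, a scale chosen after seeing the data. Igfbp7 made up 3.58, 3.52 and 3.65% of the endothelial sum at 0 h and 3.70, 3.99 and 3.73% at 48 h, a difference of 0.086 on the log2 scale in the direction opposite to its CPM. Igfbp3 made up 0.853, 0.821 and 0.932% at 0 h and 0.245, 0.232 and 0.239% at 48 h, a difference of -1.86. Relative to the stellate and fibroblast markers the differences were -0.51 for Igfbp7 and -2.45 for Igfbp3. Thus Igfbp7 was slightly higher and Igfbp3 remained lower at 48 h in each library on the endothelial scale. These ratios are descriptions without a test, and the part of endothelial cells in either decrease was not tested.

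**Figure D3:**
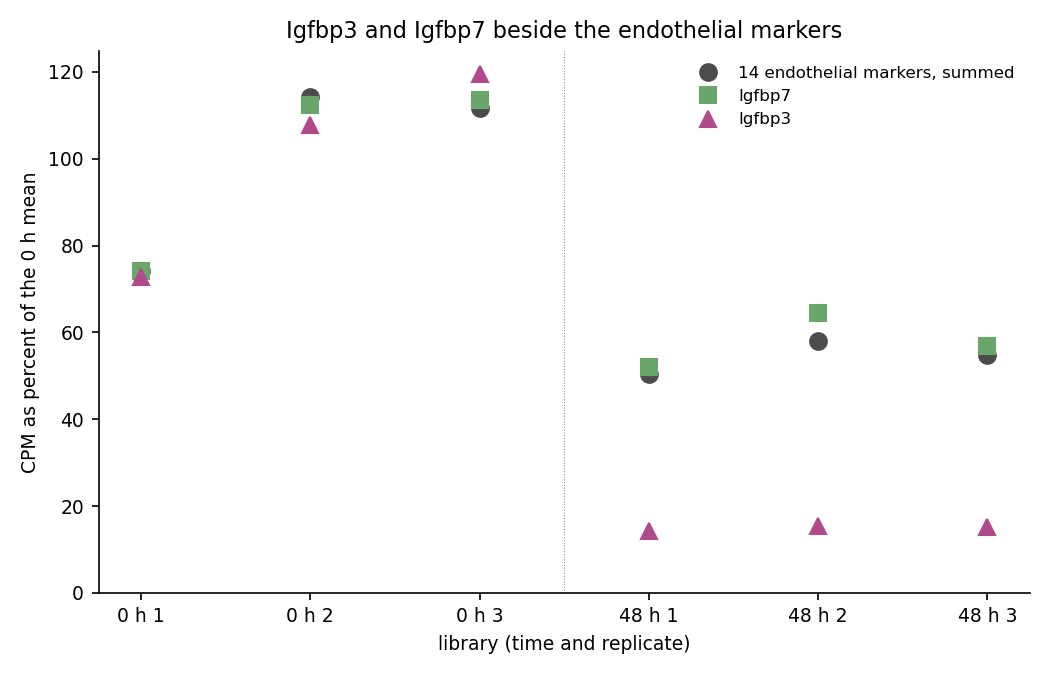
Level of Igfbp7 (squares), Igfbp3 (triangles) and the sum of 14 sinusoidal endothelial markers (circles) in each library, as CPM in percent of the mean of the 3 libraries at 0 h. The 48 h libraries of Igfbp7, at 8.52 to 10.6 CPM, lie beside the marker sum, whereas those of Igfbp3, at 0.564 to 0.615 CPM, lie well below it.

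Per length, Igfbp4 had the highest mean at 0 h, at 1064 TPM ± 24.5 (SD, n = 3), followed by Igfbp2 at 887 TPM ± 161, and these neighbours overlapped. Igfbp1 came next at 551 TPM ± 108, below both without overlap. Irs2 (73.9 TPM) and Insr (72.7 TPM) overlapped each other, as did Igf2r (37.2 TPM), Igfbp7 (35.2 TPM) and Irs1 (26.0 TPM) with their neighbours in this order. Igfbp3, at 3.30 TPM, and Igf1r, at 0.502 TPM, were the lowest, each without overlap with the gene above. With the length of the longest transcript, Igfbp2 (1066 TPM) stood above Igfbp4 (1042 TPM) and Insr (90.8 TPM) above Irs2 (62.8 TPM).

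At 48 h Igfbp4 was the highest at 1248 TPM ± 86.8 (SD, n = 3) and Igfbp2 followed at 501 TPM ± 78.0, now without overlap. Igfbp1, at 148 TPM ± 99.0, overlapped Insr (54.9 TPM), and Insr, Igf2r (43.7 TPM), Irs2 (40.5 TPM), Irs1 (25.9 TPM) and Igfbp7 (24.4 TPM) each overlapped the next. Igfbp3 (0.590 TPM) and Igf1r (0.373 TPM) again closed the order. TPM values are not TMM-adjusted, so the order within a time, not the change between times, is read from them.

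Within a library, the make-up of the binding protein mRNA can be compared without any scaling between libraries. Igfbp4 accounted for 41.2, 41.2 and 43.2% of the summed TPM of the 5 binding proteins at 0 h and for 63.2, 66.3 and 65.2% at 48 h. Igfbp1 accounted for 25.8, 16.5 and 23.1% at 0 h and for 13.4, 6.83 and 2.87% at 48 h. Igfbp2 accounted for 31.9, 40.6 and 31.9% and for 22.3, 25.5 and 30.6%. The shares of all 3 genes were separated between the times, with that of Igfbp4 higher and those of Igfbp1 and Igfbp2 lower at 48 h, while the share of Igfbp7 overlapped at 1.04 to 1.59% and 1.12 to 1.35%. These shares add up to a fixed total in each library, so that of Igfbp4 can be higher while its own CPM did not pass the test.

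**Figure D4:**
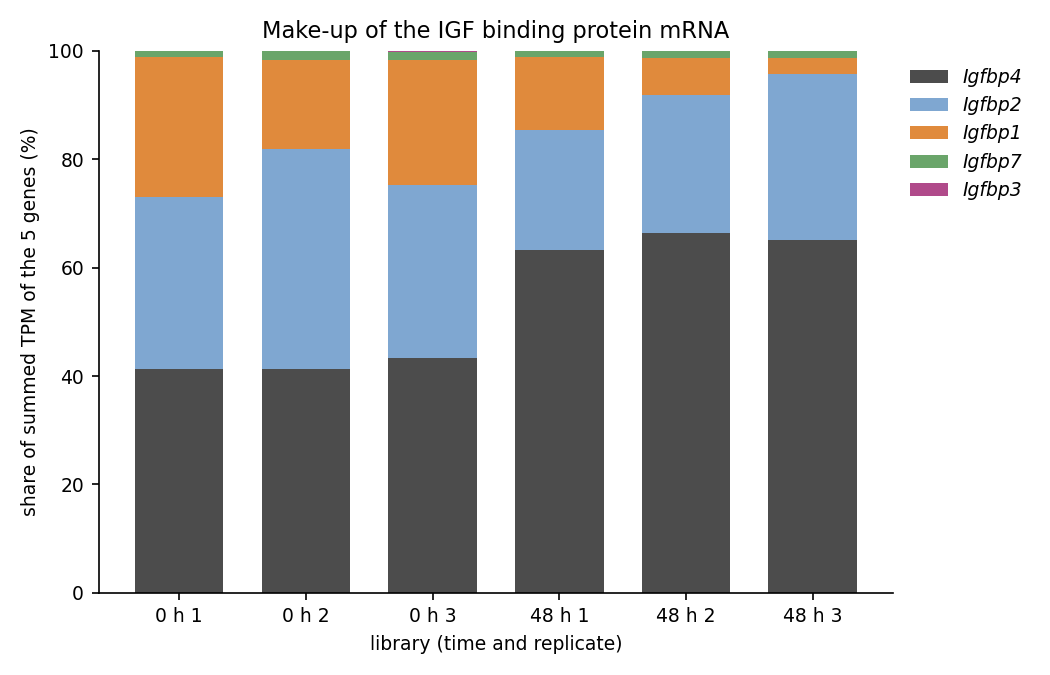
Share of each binding protein gene in the summed TPM of the 5 genes, in percent, for each library named by time and replicate. The Igfbp4 part grows from 41.2 to 43.2% at 0 h to 63.2 to 66.3% at 48 h while the Igfbp1 part narrows, on a total fixed at the sum of the 5 genes. Igfbp3, at 0.157% or less, is too thin to see.

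Of the 6 ligands and their partners 3 were tested, and all 3 were lower at 48 h. Ghr, the growth hormone receptor that drives hepatic IGF1, was at 657, 697 and 704 CPM at 0 h and at 206, 262 and 288 CPM at 48 h (log2 fold change -1.45, SE 0.149, edgeR adjusted p = 3.87e-05). Igfals, the acid-labile subunit that joins IGF1 and Igfbp3 in the large circulating complex, was at 198, 186 and 190.3 CPM and at 60.1, 87.9 and 80.04 CPM (-1.33, SE 0.145, edgeR adjusted p = 5.71e-05). Neither gene's libraries overlapped between the times.

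Igf1 was at 799, 734 and 775 CPM at 0 h and at 616, 634 and 547 CPM at 48 h, with no overlap (log2 fold change -0.36, SE 0.128, edgeR adjusted p = 0.0451). The Igf1 call was lost without 0 h replicate 1 (adjusted p = 0.119) or 3 (0.103), or 48 h replicate 1 (0.0579), 2 (0.0823) or 3 (0.141), and with library size as the only scaling (-0.16, adjusted p = 0.353) and with no filter on low counts (-0.38, adjusted p = 0.0545). Using the replicate number as a block also lost this call. Igf2, Ins1 and Ins2 had 0 to 3 counts per library and were not tested. Of the other family members (Igfbp5, Igfbp6, Igfbpl1, Insrr, Irs3 and Irs4), Igfbp5 was the only gene tested, and the rest had 0 to 6 counts per library.

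Igfbp5, whose gene lies 5457 bases from Igfbp2, was at 14.2, 4.54 and 14.1 CPM at 0 h and at 4.63, 4.61 and 3.20 CPM at 48 h. The libraries overlapped because 0 h replicate 2 was as low as the later ones. The log2 fold change was -1.40 (SE 0.364, edgeR adjusted p = 0.0113), and -1.78 without 0 h replicate 2. As a percent of the summed endothelial markers Igfbp5 was 0.870 to 4.17 at 0 h and 1.28 to 2.01 at 48 h, so that the times overlapped, with a difference of -0.39 on the log2 scale, and the part of these markers in its decrease was not tested. Of the 5 genes for binding protein proteases and their inhibitors, Htra1 alone was tested and it was not called.

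Downstream of the receptors, the shares of genes called in each list are to be read beside the 21.3% higher and 19.3% lower over all genes tested. Of the 24 genes of the PI3K, AKT and mTOR branch, 7 were higher and 5 lower, with a median log2 fold change of 0.10. The kinase gene Akt1 rose from 43.9 ± 1.62 to 74.3 ± 0.242 CPM (SD, n = 3; log2 fold change 0.76, edgeR adjusted p = 0.000121), Pik3r3, a regulatory PI3K subunit, from 2.23 to 4.10 CPM (0.87, adjusted p = 0.00911) and Eif4ebp1, a translation repressor that mTOR inactivates, from 25.2 to 35.4 CPM (0.49, adjusted p = 0.0136). The transcription factor gene Foxo3 fell from 139 ± 32.5 to 82.3 ± 5.97 CPM (-0.76, adjusted p = 0.00438), and Tsc1, an inhibitor of mTOR signalling, from 58.3 to 36.4 CPM (-0.68, adjusted p = 0.000632). Foxo1, named after its values were seen because it went the other way from Foxo3, rose from 53.6 to 74.0 CPM (0.47, edgeR adjusted p = 0.0308), with libraries that overlapped between the times. The Foxo1 call was lost without 0 h replicate 2 (adjusted p = 0.0934) or 3 (0.0922), or 48 h replicate 1 (0.0982) or 2 (0.11).

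Foxo4 was at 17.0 and 13.0 CPM (log2 fold change -0.39, edgeR adjusted p = 0.0492), a call that was lost without 0 h replicate 1 (adjusted p = 0.179) or 3 (0.0698), or 48 h replicate 1 (0.116), 2 (0.145) or 3 (0.0542), with limma-voom (0.0544) and with library size as the only scaling (-0.18, adjusted p = 0.339). Using the replicate number as a block also lost the Foxo4 call (edgeR adjusted p = 0.0774). The counts of this branch moved with the libraries used: 3 were higher without 0 h replicate 3 or 48 h replicate 2, and 3 were lower when any 1 library except 0 h replicate 2 was left out. With library size as the only scaling 12 were higher and 2 lower.

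Of the 16 genes of the RAS and MAPK branch, 6 were higher and 1 lower, with a median of 0.14. Hras rose from 15.7 ± 2.93 to 33.3 ± 0.192 CPM (log2 fold change 1.08, edgeR adjusted p = 0.000151), and Mapk3, a MAP kinase gene, rose from 37.1 to 57.3 CPM (0.63, adjusted p = 0.0023). Araf, a RAF kinase gene, fell from 104.5 to 64.9 CPM (-0.69, adjusted p = 0.000491), and 2 genes were lower without 0 h replicate 2.

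Of the 15 inhibitors of the pathway, 4 were higher and 3 lower, with a median of 0.13. Socs3, a feedback inhibitor that binds cytokine and insulin receptors, was at 12.7, 9.83 and 10.8 CPM at 0 h and at 53.4, 40.04 and 36.6 CPM at 48 h, a 3.91-fold increase (log2 fold change 1.97, SE 0.162, edgeR adjusted p = 7.81e-06). Ptpn1, a phosphatase that acts on the insulin receptor, rose from 26.8 to 49.6 CPM (0.89, adjusted p = 6.25e-05) and the AKT phosphatase gene Phlpp2 from 6.30 to 10.6 CPM (0.76, adjusted p = 0.00313). Trib3, a pseudokinase that binds AKT, fell from 4.36 to 1.41 CPM (-1.63, adjusted p = 0.00113), as did Inpp5k (-0.91, adjusted p = 0.000471) and Phlpp1 (-0.47, adjusted p = 0.00511).

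The targets of insulin in liver did not share a direction. Of 5 genes that insulin lowers, G6pc, the catalytic subunit of glucose-6-phosphatase, fell from 1271 ± 71.3 to 144 ± 42.0 CPM (log2 fold change -3.14, edgeR adjusted p = 2.36e-06), Pdk4, a kinase that turns off pyruvate oxidation, rose from 8.81 to 20.3 CPM (1.21, adjusted p = 0.00314), and the other 3 were not called. Of 5 tested genes that insulin raises, Srebf1, the regulator of fatty acid synthesis, fell from 515 to 277 CPM (-0.89, adjusted p = 0.000859). In all, 2 of these 5 were lower, and 1 was lower without 0 h replicate 1, 0 h replicate 3 or 48 h replicate 2, with library size as the only scaling, with at least 50 counts required and with DESeq2. The count was 3 with limma-voom, with TMM factors from protein-coding genes, with no filter on low counts, with the replicate block and without 48 h replicate 1.

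Over all 83 genes of these lists, 70 were tested, 18 were higher and 16 lower, near the 21.3% and 19.3% over all genes tested, and the median log2 fold change was 0.01. The lists were drawn up with earlier results of these data known, and no list was tested as a set.

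**Figure D5:**
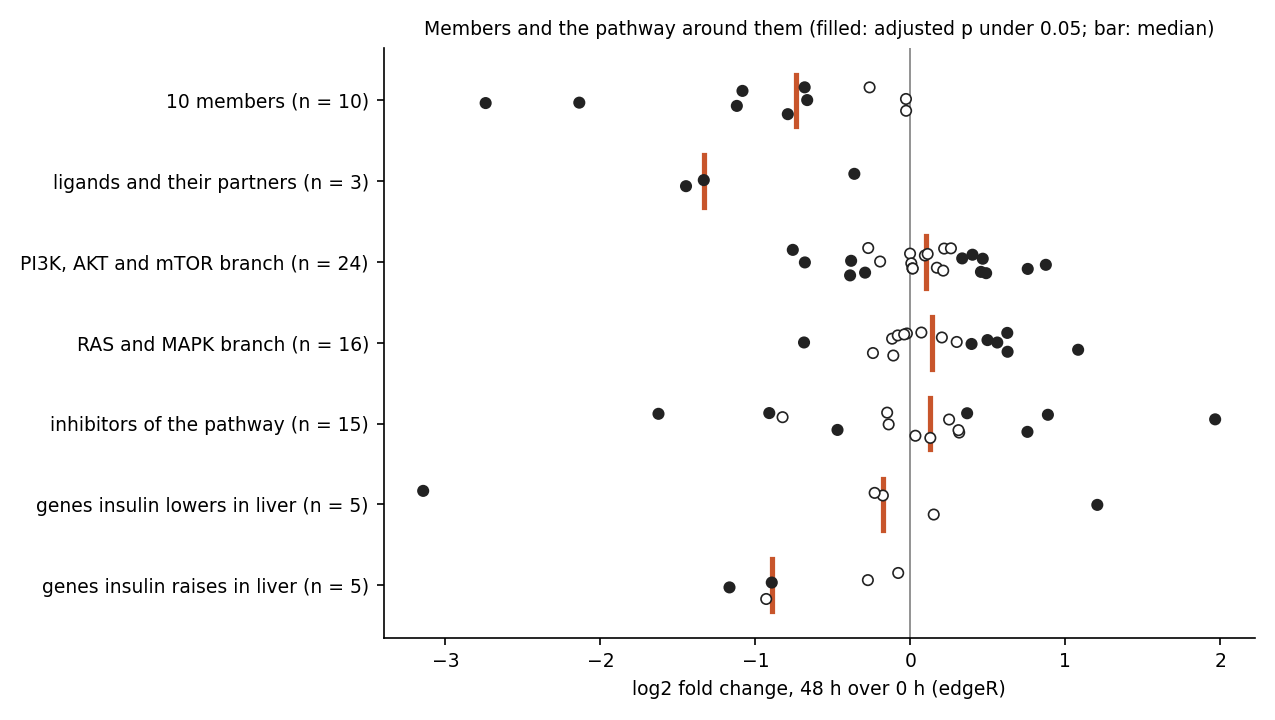
The log2 fold change at 48 h over 0 h for the tested genes of each list, with the 10 receptors, substrates and binding proteins in the top row. Each point is a gene, filled where the adjusted p was under 0.05, and the orange bar is the median of the list. Lists with 1 tested gene are not drawn, and the medians of the drawn lists run from -1.33 for the ligands and their partners to 0.14 for the RAS and MAPK branch, with -0.74 for the 10 genes.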

How the data were processed

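Bulk RNA-Seq was analysed in 6 libraries of mouse hepatocytes, 3 per time. The authors deposited raw counts of reads per gene, with no normalization. Their processing notes name FastQC 0.11.5, Trim Galore 0.6.4, STAR 2.6, HTSeq 0.12.4, DESeq2 and the build mm10, and the strand setting is not given in the sources used here. Gene names, coordinates and exon lengths came from GENCODE M21 (GRCm38), which holds all 55450 identifiers. Reads on no gene made up 24.3 to 32.7% of the reads in the files, ambiguous reads 4.27 to 5.29%, and both stayed out of library sizes. A floor of 3 counts equals 0.0839 to 0.102 CPM and covers counting error only, because reads carry no molecular identifiers.

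The times were compared in R 4.3.3 by the quasi-likelihood test of edgeR 4.0.16 (TMM, glmQLFit and glmQLFTest) in all 6 libraries, with no term beside time. A gene entered with 10 or more counts in 3 or more libraries, and 17037 did. Benjamini-Hochberg adjustment ran over these genes, calls were made under 0.05, and the SE is the size of the log2 fold change divided by the square root of F. The scripts were first tested on simulated counts. CPM were TMM-normalized. TPM used merged exon lengths. Alternatives were DESeq2 1.42.0, voom in limma 3.58.1, other normalizations and filters, the replicate number as a block, the longest transcript and leaving out each library. Within a time, libraries differed by more than counting noise (mean chi-square per gene 25.8 or more), and each was 1 sample. A permutation test of 3 against 3 libraries cannot go below p = 0.1.

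The 10 genes and all lists were chosen with earlier results of these data known. Named besides the 10 were tested ligands, partners and family members, up to 3 called genes per direction and list with a mean of at least 1 CPM and no overlap between times, and the 5 genes with the highest r to Igfbp1. Airn, Polr2b and Gm9747 were named for their position. A few genes that this rule names are left out here.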

Additional observations from a re-analysis of the deposited data

How the results depend on the processing

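Over 14 alternatives, 128 of 140 log2 fold changes of the 10 genes kept both direction and call, 6 lost the call, 1 gained it and 5 turned. The 6 losses were all of Igf1r, the gain was of Irs1, and the turns were of Igf2r and Igfbp4, which were not called in any setting. Igf2r moved to 0.18 with library size only and spanned -0.13 to 0.045 over the fits that each omit 1 library, and Igfbp4 moved to 0.17 and spanned -0.081 to 0.021. The difference of the log2 ratio of Igf1r to Insr spanned -0.17 to 0.18 over such fits. Between 6 and 8 of the 10 genes were lower, and 0 were higher, in each alternative. Library size only gave 2110 genes lower over all genes tested and 5308 higher, because it moved the median of all genes to 0.20; the share of higher calls was then 71.6%, against 52.5%. With the replicate block, Igf1r was at -0.69 (adjusted p = 0.0566), 6 of the 10 genes were lower, 4 genes of the PI3K, AKT and mTOR branch were higher and 3 lower, and Igf1 (adjusted p = 0.10) and Foxo4 (0.0774) lost their calls. Deviations of same-numbered libraries had correlations of 0.036, -0.093 and -0.17, and those of differently numbered libraries ran from -0.067 to 0.15. With 3 libraries per time, these values cannot decide whether a number marks a shared day or batch. Of 24 other genes covered by the naming rule, 20 kept their call in all 14 alternatives; Igf1, Foxo4 and Phlpp1 were among those that did not, Phlpp1 with library size only (-0.27, adjusted p = 0.0811). Relative to the endothelial sum, chosen after seeing the data, Igfbp7 moved to 0.086 and Igfbp3 to -1.86. Depth limits Igfbp3 and Igf1r, with 19 to 158 and 56 to 118 counts per library.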
